A study of Mus musculus with 6 samples.

Results

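The transcripts of 10 genes that mark the cells of blood vessels were followed through 6 cultures of primary brown adipocytes. Pecam1, Cdh5, Kdr, Tek, Tie1 and Emcn mark endothelial cells, and Rgs5, Acta2, Myh11 and Cspg4 mark mural cells. The genes were chosen by name, and a gene with several RefSeq rows was read from the row with the highest mean abundance, so that 10 of 22466 RefSeq genes and 13 of 28890 RefSeq rows were looked up. All 10 were found and all were detected in every culture.

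Brown adipocytes are thermogenic fat cells. The precursors were taken from the stromal-vascular fraction of interscapular brown adipose tissue of mice of strain 129SvEvS1 and differentiated in the dish with insulin, triiodothyronine and rosiglitazone. The mice were male, a few weeks old and either wildtype (WT, replicates 10, 11 and 12) or homozygous for a Ucp1 deletion, labelled UCP1(-/-) (Ucp1-KO, replicates 13, 14 and 15). Ucp1 encodes the uncoupling protein of brown fat mitochondria, the deletion is present in every cell of the animal, and a remnant Ucp1 transcript is still made. The 3 cultures of each genotype were prepared independently, and p-values therefore measure the spread between cultures. How many mice stood behind a culture is not given in the sources used here. No other treatment distinguished the groups.

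Endothelial cells line the inside of vessels. They are held together by adhesion molecules such as the products of Pecam1 and Cdh5, and they grow and survive on signals that reach them through the VEGF receptor Kdr and the angiopoietin receptor Tek with its relative Tie1. Mural cells wrap this tube from outside, as contractile smooth muscle cells on arteries and veins and as pericytes on capillaries. Brown adipose tissue is densely supplied with capillaries, and its stromal-vascular fraction holds both kinds of cell beside the adipocyte precursors. Some mural genes are less specific than the endothelial ones, since Acta2 is also made by activated fibroblasts and Cspg4 by other precursor cells.

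Abundance is given in RPKM, read numbers scaled to the length of the transcript and to the size of the library. A value is a whole number of reads times what 1 read is worth for that transcript and culture, from which read numbers were recovered. The totals behind the cultures lay between 14989602 and 17727651 reads, so that a transcript of 2000 bases with 3 reads has 0.0846 to 0.1001 RPKM. The targeted gene followed the labels, with Ucp1 at 1775, 981 and 1157 RPKM in the WT cultures and at 307, 409 and 398 RPKM in the Ucp1-KO cultures. The abundance of 7 adipocyte markers, summed, was 30085 to 32042 RPKM in WT and 31296 to 33881 RPKM in Ucp1-KO cultures. Fabp4 made up most of this sum, at 26399 to 29312 RPKM, while Cidea ranged from 615 to 1371 RPKM. The macrophage markers set Ucp1-KO replicate 14 apart, with a summed abundance of 848 RPKM against 43.3 to 192 RPKM in the other cultures.

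Promoter sequence was read from RefSeq on GRCm38.p6, and 7 of the 10 genes had a window at an annotated start. Only the 250 bases before that start were searched for motifs, and the 50 bases after it were not. GENCODE M21 starts Acta2 and Tie1 further upstream than RefSeq, so that both Acta2 stretches below lie inside the gene as GENCODE draws it and the Tie1 stretch spans its start. The stretches below are shown because 2 groups of vascular genes are known for 2 kinds of motif. These are the CArG box bound by serum response factor in contractile genes and ETS motifs in endothelial genes. Of the ETS motifs only the exact string AGGAAG was searched, so that other ETS sites are not marked. Each stretch is written 5′ to 3′ on the strand of the gene with the motif in capitals, and a CArG-like match kept both ends of the box and allowed 1 mismatch in its A/T middle. The CArG box reads alike on both strands, and AGGAAG was searched on both. Acta2 held 2 CArG-like matches.
Acta2, chr19:34255438-34255467, minus strand: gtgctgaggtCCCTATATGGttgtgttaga
Acta2, chr19:34255388-34255417, minus strand: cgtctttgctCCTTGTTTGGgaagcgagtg
Myl9, a contractile gene outside the 10 whose abundance is given below, also held 2.
Myl9, chr2:156775293-156775322, plus strand: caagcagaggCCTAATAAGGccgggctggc
Myl9, chr2:156775355-156775384, plus strand: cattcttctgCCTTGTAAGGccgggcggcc
Among the endothelial genes, Tie1 held 1 and Emcn held 2 matches to AGGAAG.
Tie1, chr4:118490051-118490080, minus strand: ggaagccactggCTTCCTccctttcctgtc
Emcn, chr3:137340892-137340921, plus strand: caagaagggtctCTTCCTgttcaaatccca
Emcn, chr3:137340973-137341002, plus strand: agtggctgccaaAGGAAGagagaggaaaaa
Kdr held 1 CArG-like match and no AGGAAG, and the windows of Rgs5, Cspg4 and Tek held neither searched motif. Nor did those of contractile Cnn1 and endothelial Cldn5, which are described below. Of 32851 such windows in the genome, 8.59% held a CArG-like match and 0.67% held 2 or more, while 29.5% held AGGAAG and 6.25% held 2 or more. A match describes letters in this window, and binding was not measured.

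The 6 endothelial transcripts were present at low levels that differed more between cultures of one genotype than between the genotypes. WT replicate 11 had the highest value of 6 of 6 and WT replicate 10 the lowest of 5 of 6, although both were of the same genotype. Over all 17455 genes above 0, WT replicate 11 was highest for 25.2% and WT replicate 10 lowest for 18.1%. The WT cultures stood at least 10-fold apart for 4 and at least 5-fold apart for 5 of the 5 endothelial members tested, as did 0.318% and 1.04% of all 12259 tested genes. In bulk RNA, fewer cells of a type and less RNA per cell cannot be told apart.

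Pecam1 encodes an adhesion molecule at endothelial junctions that platelets and some leukocytes also carry, and lies on GRCm38 chromosome 11 at 106654217 to 106750628, minus strand. Its abundance was 1.03, 13 and 6.53 RPKM in WT replicates 10, 11 and 12 and 2.57, 6.25 and 2.55 RPKM in Ucp1-KO replicates 13, 14 and 15. The lowest and the highest culture were both WT, and all Ucp1-KO values lay between them. The means were 6.85 ± 6.0 and 3.79 ± 2.13 RPKM (SD, n = 3 cultures), and the exact permutation test gave p = 0.6. Limma gave a log2 fold change of Ucp1-KO to WT of -0.41 (SE 0.69, 95% confidence interval -2.04 to 1.22, adjusted p = 0.94), which was 0.21 without WT replicate 11 and -1.19 without WT replicate 10.

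Cdh5 encodes VE-cadherin, the adherens junction protein of endothelium, on chromosome 8 at 104101625 to 104144511, plus strand. The WT cultures had 0.926, 12.5 and 5.38 RPKM and the Ucp1-KO cultures 2.17, 5.04 and 1.87 RPKM. The order of the 6 cultures was that of Pecam1. The lowest and the highest value rested on 63 reads in WT replicate 10 and 829 reads in WT replicate 11. The log2 fold change was -0.53 (SE 0.68, 95% confidence interval -2.15 to 1.09) with an adjusted p of 0.919 by limma, and it was 0.12 without WT replicate 11 and -1.28 without WT replicate 10.

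The receptors were scarcer than the adhesion molecules. Kdr, the main VEGF receptor of endothelium, lies on chromosome 5 at 75932827 to 75978458, minus strand, and had 0.236, 1.91 and 1.04 RPKM in WT and 0.624, 1.13 and 0.624 RPKM in Ucp1-KO cultures. Tie1, an orphan relative of the angiopoietin receptor, lies on chromosome 4 at 118471191 to 118490061, minus strand. It had 0.151, 1.56 and 0.756 RPKM in WT and 0.399, 0.673 and 0.292 RPKM in Ucp1-KO cultures. For both, the genotypes overlapped and WT replicate 10 was lowest. In limma the log2 fold change was -0.13 for Kdr (95% confidence interval -0.87 to 0.60, adjusted p = 0.958) and -0.26 for Tie1 (95% confidence interval -0.94 to 0.43, adjusted p = 0.909). Without WT replicate 11 these were 0.16 and 0.02, and without WT replicate 10 they were -0.46 and -0.55.

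Tek, the angiopoietin receptor itself, lies on chromosome 4 at 94739289 to 94874976, plus strand. It had 0.113, 0.631 and 0.218 RPKM in WT and 0.319, 0.337 and 0.172 RPKM in Ucp1-KO cultures, which rests on 9 to 49 reads. Its mean of 0.298 RPKM was under the minimum of 0.5 RPKM for the fit over all transcripts, so that it was compared by the exact permutation test alone (p = 0.9). It was the only member left out of that fit. The endothelial pattern of a high WT replicate 11 and a low WT replicate 10 was seen at this depth too.

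Emcn encodes endomucin, a sialoglycoprotein of capillary and venous endothelium, and lies on chromosome 3 at 137341067 to 137432185, plus strand. It had 0.453, 5.18 and 2.14 RPKM in WT and 1.0, 2.9 and 0.328 RPKM in Ucp1-KO cultures. Of the 6 endothelial genes it alone was lowest in Ucp1-KO replicate 15, with 7 reads there and 11 reads in WT replicate 10. Limma gave a log2 fold change of -0.48 (SE 0.59, 95% confidence interval -1.87 to 0.91, adjusted p = 0.912), which was 0.03 without WT replicate 11 and -1.02 without WT replicate 10.

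**Figure D1:**
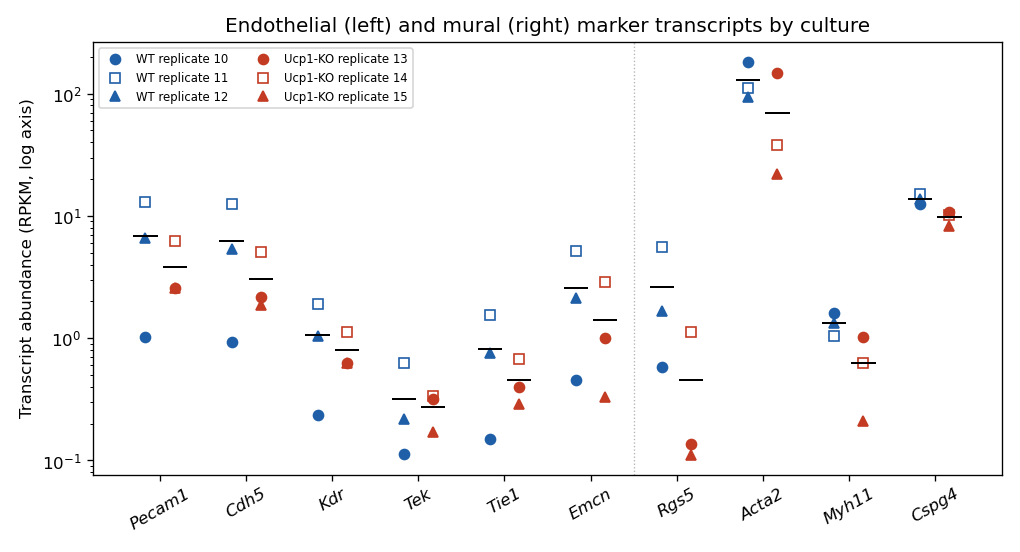
Abundance of the 10 vascular markers in each culture, in RPKM on log axes, with WT and Ucp1-KO replicates as points and genotype means as bars. The 3 WT cultures spread 12.7-fold for Pecam1, and the genotypes do not overlap for Myh11 and Cspg4.

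The proportions of the more abundant endothelial genes moved less than their total. The sum of the 6 was 2.91, 34.8 and 16.1 RPKM in WT and 7.09, 16.3 and 5.84 RPKM in Ucp1-KO cultures. The means were 17.9 ± 16.0 and 9.75 ± 5.72 RPKM (SD, n = 3), a ratio of 54.4%. This ratio depended on single cultures. It was 103% without WT replicate 11, 38.4% without WT replicate 10 and 36.1% without Ucp1-KO replicate 14. Within this 12-fold range of the sum, Pecam1 took 35.4 to 43.6% and Cdh5 30.7 to 35.9% of it in every culture, and Tie1 took 4.12 to 5.63%. The shares of the other receptors varied more, from 5.5% in WT replicate 11 to 10.7% in Ucp1-KO replicate 15 for Kdr and from 1.36% in WT replicate 12 to 4.5% in Ucp1-KO replicate 13 for the scarce Tek. Emcn took 13.3 to 17.7% in all cultures but Ucp1-KO replicate 15, where it took 5.63%.

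Most other endothelial genes were also highest in WT replicate 11. In a list of 26 further genes, 22 were highest in WT replicate 11 and 17 lowest in WT replicate 10, as were 25.2% and 18.1% of all genes above 0. Their summed abundance was 29.8, 94.9 and 50.9 RPKM in WT and 38, 53.0 and 24.1 RPKM in Ucp1-KO cultures. Of the 18 tested, 16 had a log2 fold change below 0 and 2 above 0, with a median of -0.25, and 0 passed an unadjusted p of 0.05. Sox18, a transcription factor of endothelium, had the largest of these differences in size (log2 fold change -0.71, SE 0.52), with 0.47, 5.33 and 2.58 RPKM in WT and 0.803, 1.76 and 0.536 RPKM in Ucp1-KO cultures.

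The most abundant genes of this list varied less than the markers. Eng, a co-receptor for TGF-beta that stromal cells also make, had 13.2, 15.7 and 9.72 RPKM in WT and 10.2, 9.89 and 4.4 RPKM in Ucp1-KO cultures. S1pr1, a receptor for sphingosine-1-phosphate, had 4.41, 10.9 and 6.78 RPKM in WT and 5.27, 6.42 and 2.8 RPKM in Ucp1-KO cultures. Egfl7, a secreted protein of endothelium, had 3.82, 9.47 and 6.4 RPKM in WT and 5.64, 7.18 and 4.18 RPKM in Ucp1-KO cultures. Each of them was highest in WT replicate 11 and overlapped between the genotypes.

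The mural genes did not share a single order of cultures. Rgs5 had the culture order nearest to the endothelial genes, Acta2 and Myh11 were highest in WT replicate 10, as were 7.6% of all genes above 0, and Cspg4 varied little. Ucp1-KO replicate 15 was lowest for 4 of 4, as it was for 22.3% of all genes above 0. The Ucp1-KO mean was below the WT mean for all 4.

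Rgs5, a regulator of G protein signalling and a pericyte marker, lies on chromosome 1 at 169655501 to 169695813, plus strand. Its abundance was 0.583, 5.56 and 1.68 RPKM in WT and 0.137, 1.12 and 0.111 RPKM in Ucp1-KO cultures. WT replicate 11 stood far above the rest, and Ucp1-KO replicate 14 lay between WT replicates 10 and 12. The lowest values rested on 4 reads in Ucp1-KO replicate 13 (exact 95% Poisson interval 0.0373 to 0.351 RPKM) and 3 reads in Ucp1-KO replicate 15 (0.0228 to 0.323 RPKM), intervals that cover counting error only. The Ucp1-KO mean was 17.5% of the WT mean, with a log2 fold change of -1.13 (SE 0.52, 95% confidence interval -2.37 to 0.12, adjusted p = 0.869 by limma). It was -0.57 without WT replicate 11 and -1.6 without WT replicate 10 (adjusted p = 0.999 and 0.415 by limma). On log2(RPKM + 1) the change of so scarce a transcript is understated, and with 0.1 RPKM added in place of 1 it was -2.27 (adjusted p = 0.87 by limma).

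Acta2, the smooth muscle actin, was the most abundant member by far and lies on chromosome 19 at 34241090 to 34255590, minus strand. Its abundance was 181, 111 and 93.1 RPKM in WT and 147, 37.8 and 21.8 RPKM in Ucp1-KO cultures. Ucp1-KO replicate 13 stood among the WT cultures, while Ucp1-KO replicates 14 and 15 lay below all others. The means were 128 ± 46.3 and 68.8 ± 68.1 RPKM (SD, n = 3), and the exact permutation test gave p = 0.3. The log2 fold change was -1.29 (SE 0.66, 95% confidence interval -2.85 to 0.27, adjusted p = 0.871 by limma), and it was -2.06 without Ucp1-KO replicate 13 and -0.71 without Ucp1-KO replicate 15 (adjusted p = 0.456 and 0.856 by limma).

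The members of the actin family are nearly identical in coding sequence, and only uniquely identified reads were counted. Actg1, a cytoplasmic actin that every cell makes, was listed at 0.119 to 0.34 RPKM, against 129 to 237 RPKM for Actb. Levels of Acta2 and its relatives are given as uncertain, and the part of read assignment in them was not tested. Acta1, the skeletal muscle actin, had 5.6, 2.55 and 3.03 RPKM in WT and 8.9, 2.19 and 4.66 RPKM in Ucp1-KO cultures, an order unlike that of Acta2.

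Myh11, the myosin heavy chain of smooth muscle, lies on chromosome 16 at 14194535 to 14291372, minus strand. It had 1.62, 1.05 and 1.33 RPKM in WT and 1.03, 0.625 and 0.212 RPKM in Ucp1-KO cultures. All Ucp1-KO cultures lay below all WT cultures, by a narrow gap between Ucp1-KO replicate 13 and WT replicate 11. The exact permutation test gave p = 0.1, the smallest that 3 against 3 cultures allow. The log2 fold change was -0.55 (SE 0.21, 95% confidence interval -1.05 to -0.05), with an unadjusted p of 0.0351 and an adjusted p of 0.868 by limma, and -1.16 with 0.1 RPKM added. The unadjusted p by limma did not hold without WT replicate 10 (0.103), WT replicate 12 (0.0818), Ucp1-KO replicate 14 (0.0647) or Ucp1-KO replicate 15 (0.0871, log2 fold change -0.35), nor without a minimum abundance (0.0579).

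Cspg4 encodes the NG2 proteoglycan of pericytes and lies on chromosome 9 at 56865033 to 56899870, plus strand. It had 12.6, 15 and 13.7 RPKM in WT and 10.7, 10.1 and 8.3 RPKM in Ucp1-KO cultures, on 1001 to 2013 reads. The cultures of a genotype lay close together and the genotypes did not overlap. The means were 13.8 ± 1.19 and 9.69 ± 1.24 RPKM (SD, n = 3), with p = 0.1 in the exact permutation test. The log2 fold change was -0.47 (SE 0.12, 95% confidence interval -0.75 to -0.18), with an unadjusted p of 0.0063 and an adjusted p of 0.868 by limma. It kept its direction and an unadjusted p under 0.05 with any 1 culture left out, between -0.53 and -0.37.

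**Figure D2:**
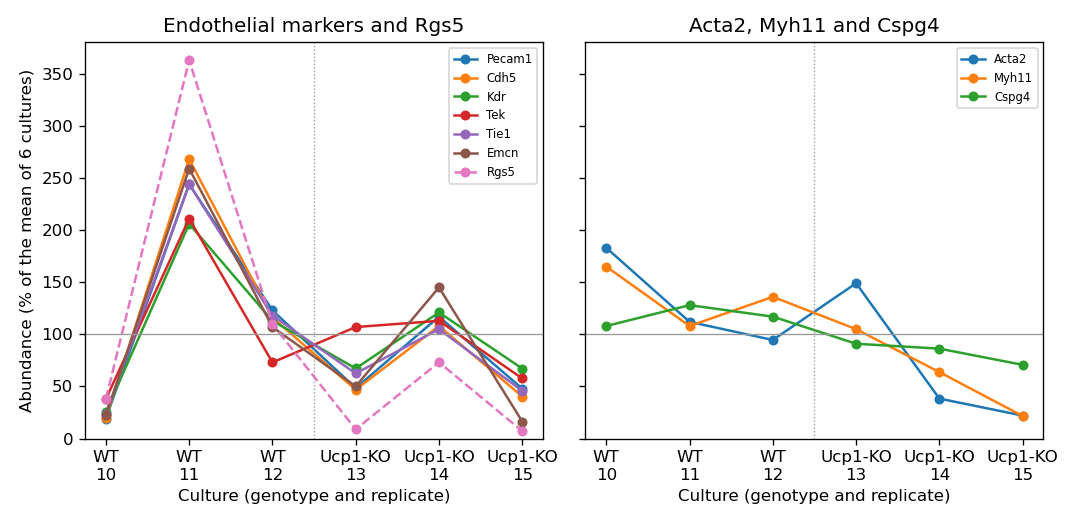
Abundance of each vascular marker in each culture as a percentage of its mean over the 6 cultures, with lines that join the points of a gene and carry no order. The 6 endothelial genes run together, at 206 to 268% in WT replicate 11 and 19.3 to 38% in WT replicate 10, whereas Acta2 and Myh11 are highest in WT replicate 10 and all 4 mural genes are lowest in Ucp1-KO replicate 15.

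Across the members, none of 9 tested passed an adjusted p of 0.05 in limma, as was so for all 16865 transcripts tested (0.0%). Ucp1 was among those that did not pass, with a log2 fold change of -1.78, an unadjusted p of 0.000157 and an adjusted p of 0.868 by limma. The fit thus did not call even the targeted gene, and an adjusted p above the threshold does not show equal levels. An unadjusted p under 0.05 with lower abundance in Ucp1-KO was found for 2 members, Cspg4 and Myh11, and for 3.24% of all tested transcripts. The genotypes did not overlap for the same 2 members, and 5.15% of tested transcripts had all Ucp1-KO below all WT cultures. The log2 fold change was below 0 for 9 of 9 tested members and for 50.4% of tested transcripts. The median over the tested members was -0.48, beside -0.003 over all tested genes. The members were read in the same cultures and most endothelial ones shared their highest and lowest culture, so that 9 genes of one sign are not 9 separate observations.

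Single cultures decided much of this. Without WT replicate 11 the Ucp1-KO mean was lower for 5 members in place of 10, and for 43.1% of tested transcripts in place of 49.3%, and the median log2 fold change was 0.02. Without WT replicate 10 it was -1.01, and the genotypes did not overlap for 6 members, with all Ucp1-KO below both remaining WT cultures for 20.2% of tested transcripts. With another culture left out the median lay between -0.75 without Ucp1-KO replicate 14 and -0.33 without Ucp1-KO replicate 15.

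**Figure D3:**
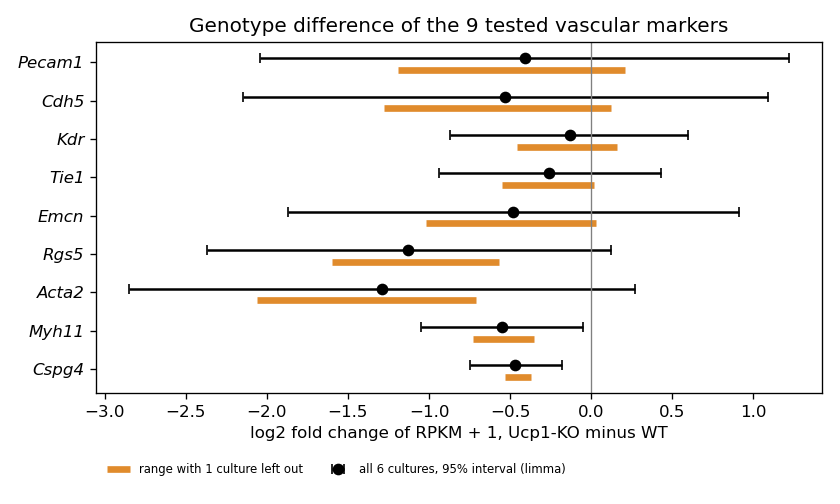
Log2 fold change of Ucp1-KO to WT of each tested vascular marker on log2(RPKM + 1), as a point with its 95% confidence interval from limma. A thick bar beneath each point shows the range of the values with 1 culture left out. The 9 values lie between -1.29 and -0.13, and the intervals of Cspg4 and Myh11 lie below 0.

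By mean abundance per length over the 6 cultures, the order was Acta2 (98.5 RPKM), Cspg4 (11.7), Pecam1 (5.32), Cdh5 (4.64), Emcn (2.0), Rgs5 (1.53), Myh11 (0.979), Kdr (0.928), Tie1 (0.639) and Tek (0.298). From Acta2 down to Emcn each gene exceeded the next in 6 of 6 cultures, as Kdr exceeded Tie1 and Tie1 exceeded Tek. Neighbours from Emcn to Kdr were not separated, since Emcn exceeded Rgs5 in 4, Rgs5 exceeded Myh11 in 3 and Myh11 exceeded Kdr in 3 of 6 cultures. No exon of another gene overlapped an exon of any of the 10 genes in GENCODE M21. Of the 10, 7 had at least 10 reads in every culture.

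Most other mural genes also had lower mean abundance in Ucp1-KO cultures. Of 21 further mural and smooth muscle genes, 19 were tested, with 17 log2 fold changes below and 2 above 0 and a median of -0.53. Of all tested transcripts, 50.4% had a log2 fold change below 0. An unadjusted p under 0.05 with lower abundance in Ucp1-KO was found for 4, beside 3.24% of tested transcripts, and an adjusted p under 0.05 for 0. In 14 of the 21, Ucp1-KO replicate 15 was lowest, as it was for 22.3% of all genes above 0. These genes were read in the same cultures and are not separate observations. The summed abundance of the 21 was 643, 676 and 555 RPKM in WT and 527, 396 and 389 RPKM in Ucp1-KO cultures.

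The 4 genes were Myl9, Cnn1, Actg2 and Abcc9. Myl9, a regulatory myosin light chain whose CArG-like stretches are printed above, had 46.4, 31.5 and 24.3 RPKM in WT and 30.6, 10.9 and 4.8 RPKM in Ucp1-KO cultures (log2 fold change -1.39, SE 0.58). Cnn1, which encodes the actin-binding calponin, had 5.84, 3.89 and 3.44 RPKM in WT and 4.14, 1.28 and 0.806 RPKM in Ucp1-KO cultures. In both, Ucp1-KO replicate 13 lay among the WT cultures as for Acta2. Actg2, a visceral smooth muscle actin, had 4.19, 4.15 and 2.79 RPKM in WT and 2.45, 0.441 and 0.406 RPKM in Ucp1-KO cultures, without overlap and on 8 to 94 reads. Abcc9, a subunit of the potassium channel of pericytes, had 0.859, 3.7 and 2.11 RPKM in WT and 0.378, 0.985 and 0.19 RPKM in Ucp1-KO cultures, an order closer to that of Rgs5. Their adjusted p by limma was 0.868 each.

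The 3 most abundant genes of this list did not pass an unadjusted p of 0.05. Ndufa4l2, a mitochondrial protein induced by hypoxia and used as a pericyte marker, had 91.5, 181 and 137 RPKM in WT and 46.1, 95.6 and 135 RPKM in Ucp1-KO cultures. Tpm1, a tropomyosin, had 109.7, 109.6 and 90.7 RPKM in WT and 100.2, 77.0 and 63.2 RPKM in Ucp1-KO cultures. Aoc3, an amine oxidase that adipocytes also make in quantity, was even across cultures at 88.5 to 94.1 RPKM, with a log2 fold change of 0.04. Its Ucp1-KO values all lay above its WT values, as did those of the scarce Higd1b on 0 to 4 reads. Actg2 alone of the list had all WT above all Ucp1-KO cultures. Tagln, an actin-binding protein of smooth muscle with one of the largest differences, had 153, 93.5 and 70.2 RPKM in WT and 110.1, 27.1 and 19.1 RPKM in Ucp1-KO cultures (log2 fold change -1.35, SE 0.63, adjusted p = 0.871 by limma).

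Among the genes whose log2(RPKM + 1) ran closest to that of Acta2 over the 6 cultures, of 12258 genes compared, were Tgfb3, Atoh8, Socs5 and Tagln, with Pearson's r of 0.995 to 0.997. Tgfb3, a TGF-beta ligand, had 9.64, 7.38 and 6.13 RPKM in WT and 8.43, 3.29 and 2.44 RPKM in Ucp1-KO cultures. Among the members, r with Acta2 was 0.931 for Myh11 (rank 186), 0.732 for Cspg4 (rank 1158), 0.223 for Rgs5 (rank 4021) and -0.133 for Pecam1 (rank 6207). With the summed endothelial members the closest of 12254 genes were Cldn5, Gpihbp1, Kcne3, Rad50 and Maml1, with r of 0.991 to 0.998. Cldn5, the tight junction claudin of endothelium, had 0.165, 5.67 and 2.43 RPKM in WT and 0.962, 2.42 and 0.801 RPKM in Ucp1-KO cultures. Gpihbp1, which anchors lipoprotein lipase on capillaries, had 0.367, 8.34 and 4.03 RPKM in WT and 1.24, 3.64 and 1.34 RPKM in Ucp1-KO cultures. Rgs5 reached 0.847 with this sum (rank 804), Cspg4 0.478 (rank 4477), Acta2 -0.094 (rank 8801) and Myh11 -0.027 (rank 8361). These values rest on 6 cultures that share libraries, and the closest genes were picked as the highest of many, so they serve as description.

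**Figure D4:**
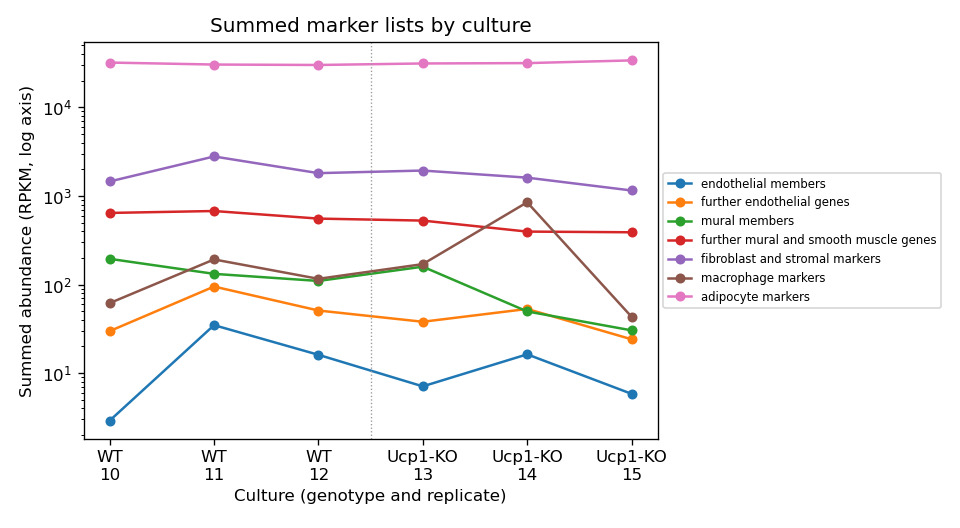
Summed abundance of marker lists in each culture, in RPKM on a log axis, with a line for each list that joins its points and carries no order. The endothelial lists are highest in WT replicate 11, the macrophage list in Ucp1-KO replicate 14, and the adipocyte list, most of which is Fabp4, is nearly level.

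Genes of the programme that serum response factor and YAP/TAZ drive, to which Acta2 and Tagln belong, were counted in a list of 14. Of 13 tested, 12 had a log2 fold change below 0 and 1 above, with a median of -0.4, and 0 had an unadjusted p under 0.05. Ucp1-KO replicate 15 was lowest for 10 of the 14, as it was for 22.3% of all genes above 0. Ctgf, a matricellular target of YAP, had 70.3, 44.8 and 33.9 RPKM in WT and 52.8, 15.9 and 13.1 RPKM in Ucp1-KO cultures (log2 fold change -1.05, SE 0.52, adjusted p = 0.871 by limma). Flna, the actin crosslinker filamin A, differed by -0.5 on the log2 scale, and the abundant Actb, Vcl and Tagln2 by -0.12, -0.24 and -0.47, all with overlapping genotypes. The summed abundance of the list was 629.9, 584 and 477 RPKM in WT and 634, 426 and 325 RPKM in Ucp1-KO cultures.

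The ligands and inhibitors that vascular cells respond to were measured in the same cultures. Of 23 tested among 24, 18 had a log2 fold change below 0 and 5 above, with a median of -0.12. Vegfa, the ligand of Kdr, was abundant at 159, 195 and 198 RPKM in WT and 128, 184 and 276 RPKM in Ucp1-KO cultures (log2 fold change 0.03, 95% confidence interval -0.61 to 0.66). Angpt2, a ligand of Tek, had 6.77, 21.9 and 14.5 RPKM in WT and 3.35, 11.3 and 5.96 RPKM in Ucp1-KO cultures, highest in WT replicate 11 like the endothelial markers. Angpt1, another ligand of Tek, had 0.546, 0.837 and 0.733 RPKM in WT and 1.05, 1.27 and 0.949 RPKM in Ucp1-KO cultures. It was 1 of 3 genes in the list with all Ucp1-KO above all WT cultures. The reverse held for 1 gene, as for 5.15% of tested transcripts. Thbs1, an inhibitor of angiogenesis, had 180, 137 and 152 RPKM in WT and 176, 81.3 and 89.4 RPKM in Ucp1-KO cultures (log2 fold change -0.51).

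In this list 3 genes had an unadjusted p under 0.05, each with an adjusted p of 0.868 by limma. Of them 2 were lower in Ucp1-KO, as 3.24% of tested transcripts were with such a p. Cxcl12, a chemokine of stromal and vascular cells, had 57.8, 189 and 109 RPKM in WT and 34.1, 82.7 and 25.5 RPKM in Ucp1-KO cultures (log2 fold change -1.33, SE 0.54). Fgf2, a fibroblast growth factor that acts on endothelium, was lower in Ucp1-KO on 4 to 17 reads (log2 fold change -0.43). An unadjusted p under 0.05 with higher abundance in Ucp1-KO, as 2.3% of tested transcripts had, was found for Fgf1, a growth factor that adipocytes make, with 3.5, 2.97 and 3.11 RPKM in Ucp1-KO against 2.7, 1.96 and 2.32 RPKM in WT cultures (log2 fold change 0.34, SE 0.12).

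Markers of other cells were read beside the vascular genes. The 10 fibroblast and stromal markers, all tested, had log2 fold changes below 0 in 10 of 10, beside 50.4% of tested transcripts, with a median of -0.27. Of the 10, 8 were highest in WT replicate 11, as were 25.2% of all genes above 0. Their summed abundance was 1457, 2790.2 and 1809 RPKM in WT and 1935, 1609 and 1153 RPKM in Ucp1-KO cultures. Dcn and Fn1 had an unadjusted p under 0.05 with lower abundance in Ucp1-KO, beside 3.24% of tested transcripts. Of 8 macrophage markers, 8 were highest in Ucp1-KO replicate 14, as were 15.7% of all genes above 0, and 8 lowest in Ucp1-KO replicate 15, with log2 fold changes above 0 for 6, below 0 for 2 and a median of 0.28. The macrophage sum was 61.7, 192 and 116 RPKM in WT and 170, 848 and 43.3 RPKM in Ucp1-KO cultures, and within each genotype it ordered the cultures as the endothelial sum did. Ucp1-KO replicate 14 had the highest values among the Ucp1-KO cultures for the 6 endothelial members and Rgs5, though not over all 6 cultures. The part of stromal and macrophage transcripts in the vascular values was not tested.

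Skeletal muscle markers summed to 8.11 to 10.9 RPKM in WT and 5.81 to 14.2 RPKM in Ucp1-KO cultures, and Pax7 of muscle stem cells was at 0 in every culture. Schwann and nerve markers summed to 7.39 to 11.1 RPKM in WT and 10.4 to 10.6 RPKM in Ucp1-KO cultures, with Th and Dbh at 0. The 7 adipocyte markers had log2 fold changes above 0 in 7 of 7, with a median of 0.14. The part of these lists in the vascular values was not tested either. The mural members without Acta2 summed to 14.8, 21.6 and 16.7 RPKM in WT and 11.8, 11.9 and 8.62 RPKM in Ucp1-KO cultures, 60.9% in the ratio of means, beside 54.6% with Acta2. The ratio with Acta2 was 27.5% without Ucp1-KO replicate 13 and 71.5% without Ucp1-KO replicate 15.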

How the data were processed

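Expression was read by RNA sequencing (single-end, 50 bases) in 3 WT and 3 Ucp1-KO cultures, grouped by their labels. According to the methods, the authors aligned to NCBI build 38 of the mouse and counted only reads that the Genomatix software could place uniquely in a known transcript. The deposited unit is RPKM. Each of the value columns carries the title of its culture, and no culture was left out.

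Tests covered the RefSeq transcripts with a mean of 0.5 RPKM or more, which were 16865 of 28890 and came from 12259 genes. Log2(RPKM + 1) was fitted in limma 3.58.1 (R 4.3.3) with genotype as the only term and a moderated variance that follows abundance. Benjamini-Hochberg adjustment ran over every tested transcript, with a threshold of 0.05. Fold changes are on the log2(RPKM + 1) scale, which understates those of scarce transcripts. Permutation tests were exact and two-sided. Whole reads were recovered from RPKM for 16865 of 16865 tested transcripts, with a tolerance of 0.02 reads beyond rounding and the smallest transcript length that made all 6 values whole. Library totals came from Ensembl transcripts with GENCODE M21 lengths, of whose values under 200 reads 94.3 to 94.5% lay within 0.05 reads of a whole number. The reads served a limma-voom alternative. The methods were tested on simulated data. Precision is limited by 3 cultures per genotype and, for transcripts of few reads, by depth. Poisson intervals cover counting error only, since amplified reads carry no molecular identifiers. The confidence intervals from limma reflect the spread between cultures. Other steps ran in Python 3.11.15 (pandas 2.3.3, numpy 2.4.6, scipy 1.17.1, matplotlib 3.10.9).

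The members and all gene lists were chosen with earlier results of these data known. Named beside the members were genes of each further vascular list with an unadjusted p under 0.05, its 3 most abundant and its 2 largest differences, and the 5 genes most like Acta2 and most like the endothelial sum. A result that this rule would name is not reported here. Acta1 and Actg1 were named as relatives of Acta2, and Dcn and Fn1 after their values were seen. The library kit does not mark strand. Alternatives were another constant, other filters, 1 transcript per gene, median-of-ratios scaling, limma-voom and leaving out each culture. Counts with a culture left out were added after the data were seen.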

Additional observations from a re-analysis of the deposited data

How the results depend on the processing

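No paired analysis was possible because the genotypes share no replicate numbers. The count of transcripts past an adjusted p of 0.05 was 0 under every alternative run except without a minimum abundance, where it was 22, none of them a member. The 935 transcripts with an unadjusted p under 0.05 ranged from 317 without WT replicate 11 to 1754 without WT replicate 10, with 441 without WT replicate 12, 1542 without Ucp1-KO replicate 13 and 602 without Ucp1-KO replicate 14, and came to 1456 without a minimum abundance. With 1 culture left out, the log2 fold change ranged from -1.19 to 0.21 for Pecam1, -1.28 to 0.12 for Cdh5, -0.46 to 0.16 for Kdr, -0.55 to 0.02 for Tie1 and -1.02 to 0.03 for Emcn, the lower end without WT replicate 10 and the upper without WT replicate 11. The members without overlap numbered 2 to 6, with 6 without WT replicate 10, beside 5.96% to 20.2% of tested transcripts with 1 culture left out, the most without WT replicate 10, and those with a lower Ucp1-KO mean 5 to 10, with 5 without WT replicate 11, beside 43.1% to 55.5% of tested transcripts. Of 105 values of single members under alternatives, the 5 endothelial ones without WT replicate 11 changed sign, and the lowest adjusted p of a member was 0.406. The endothelial ratio of 54.4% ranged from 36.1% to 103% and the mural ratio of 54.6% from 27.5% to 71.5% with 1 culture left out. The cause of these shifts was not tested. Rgs5, Emcn and Tek are limited by depth, since they fell to 3, 7 and 9 reads.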
